A study of Ictalurus punctatus and Ictalurus punctatus x Ictalurus furcatus with 18 samples.

Results

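Livers of hybrid catfish and of Red River channel catfish were compared after both had spent 6 weeks in water that cycled daily between 32 and 36 °C. The comparison rests on 6 of the 18 RNA-seq libraries of the study, all those of these types at the high temperature. The hybrid libraries are H2, H6 and H8, labelled DS hybrid and of the Delta Select strain, and the Red River libraries are H1, H4 and H7, labelled RRxRR and of the channel type. Each library is RNA pooled from 3 fingerlings of 1 tank, so that n = 3 counts tanks and not fish. The other 12 libraries are the same 2 types at 27 to 31 °C and Delta Select channel catfish (DSxDS) at both temperatures, with 3 tanks in each group.

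Hybrid catfish are crosses of channel catfish with blue catfish, and every cell of such a fish carries chromosomes of both parent species. A gene can then be read from a channel copy and a blue copy, whose transcripts differ in sequence. Red River fish carry channel copies alone. The hybrids here are of the Delta Select strain, so hybrid status and strain differ together between the groups. The parts of hybrid status and of strain in a difference cannot be told apart in this comparison. The liver makes most plasma proteins and the enzymes of sugar, fat and nitrogen metabolism, so a small set of transcripts takes a large part of its RNA. The study asks how geographic strains and types of catfish differ under chronic high temperature.

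The features are 144746 assembled transcripts, known by the k-mer size of the assembly and a number. No identifier has a match among the 32344 genes of the RefSeq table for channel catfish, so genes, functions, positions and sequences are not given here and the labelled tissue could not be checked against liver markers. A feature is a transcript and not a gene, and copies of a gene from the parent species can be separate features or can share reads. How shared reads were divided is not given in the sources used here, so the level of any single identifier is uncertain to that extent. The part of this in the differences below was not tested. Likewise, a tissue made of fewer cells of a type and a tissue with less RNA per cell cannot be told apart in bulk RNA.

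The 6 libraries held between 38550145 (H7) and 49464202 (H8) reads on transcripts. Within a type they were alike. Levels are given in CPM, reads scaled to library size. Over transcripts of at least 1 CPM, the median absolute log2 difference between libraries of a type was 0.149 to 0.172, and between a hybrid and a Red River library it was 0.322 to 0.350. All 9 pairs across types were thus farther apart than all 6 pairs within types. Among libraries outside the comparison, L3 and L5, low-temperature tanks labelled as Delta Select channel fish, go against that label. They carry transcripts otherwise seen in hybrids, such as k62:2049125, named further on, at 465.0 and 233.6 CPM, against 1.74 CPM in L8 of the same group. They enter the comparison only through the shared estimate of spread, the low-count filter and the scaling. Without them 104367 transcripts were tested in place of 96799, and 33554 were called in place of 29897. Of the 96793 transcripts tested in both fits, 18308 were then called higher and 13916 lower in hybrids.

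Hybrid and Red River livers differed in 30.9% of the transcripts that could be tested, and the direction depended on the size of the difference. Of 96799 transcripts tested, 29897 were called at an adjusted p under 0.05 (edgeR quasi-likelihood test with Benjamini-Hochberg adjustment over all transcripts tested). Of these, 17158 (17.7%) were higher and 12739 (13.2%) lower in hybrids. Small differences were more often reductions. Under 2-fold, 4802 transcripts were higher and 7162 lower in hybrids. Large differences were mostly gains. Over 4-fold, 5955 were higher and 674 lower, and over 16-fold 1601 were higher and 72 lower. These directions held in each of the 16 other fits made and at an adjusted p under 0.01, although the counts themselves moved. In 28887 of the calls (96.6%) all hybrid libraries lay on the same side of all Red River libraries. The calls were chosen from these same libraries, and of all 96799 transcripts tested 45645 (47.2%) lay apart in this way.

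Fitted fold changes are uncertain where a type had no reads. Among the calls, 357 of the higher transcripts had 0 reads in all Red River libraries and 9 of the lower had 0 reads in all hybrid libraries. With the absent type set to a floor of 3 reads over its group, 1457 transcripts were over 16-fold higher and 69 over 16-fold lower. The median log2 fold change of the higher transcripts was 1.51 with and without this floor, and that of the lower transcripts was -0.93.

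To describe the differences across levels, transcripts were placed in 6 classes by their mean CPM over the 6 libraries. The classes are parted at 1, 4, 16 and 64 CPM and at 4 times 64 CPM, and those on either side of the last edge are called the high and the top class. The class under 1 CPM held 46601 transcripts, 48.1% of those tested, with a median of 17.0 reads per library. The class of 1 to 4 CPM held 27793 (median 85.3 reads), that of 4 to 16 CPM 15110 (310.3 reads), that of 16 to 64 CPM 4950 (1174 reads) and the high class 1841 (4986 reads). The top class held 504 transcripts, with a median of 19031 reads per library. The error of a log2 fold change fell with level, from a median SE of 0.41 in the least abundant class to 0.16 in the most abundant. The tank spread did not fall in this way, though the pseudocount damps the spread of low levels. The median SD of log2(CPM + 1) between tanks was 0.14 in hybrids and 0.14 in Red River fish both at 1 to 4 CPM and in the top class.

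Differences between the types ran through all classes. The share of a class that was called was 25.2% under 1 CPM, 34.6% at 1 to 4, 37.5% at 4 to 16, 39.8% at 16 to 64, 39.4% in the high class and 34.7% in the top class, against 30.9% of all transcripts. The class with the fewest reads had the lowest share. The share called higher in hybrids stayed between 17.0% and 21.9% in every class. The share called lower rose from 8.15% under 1 CPM and 16.1% at 1 to 4 CPM to 20.5% at 4 to 16 CPM, and was 19.7%, 17.5% and 17.5% in the classes above.

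**Figure D1:**
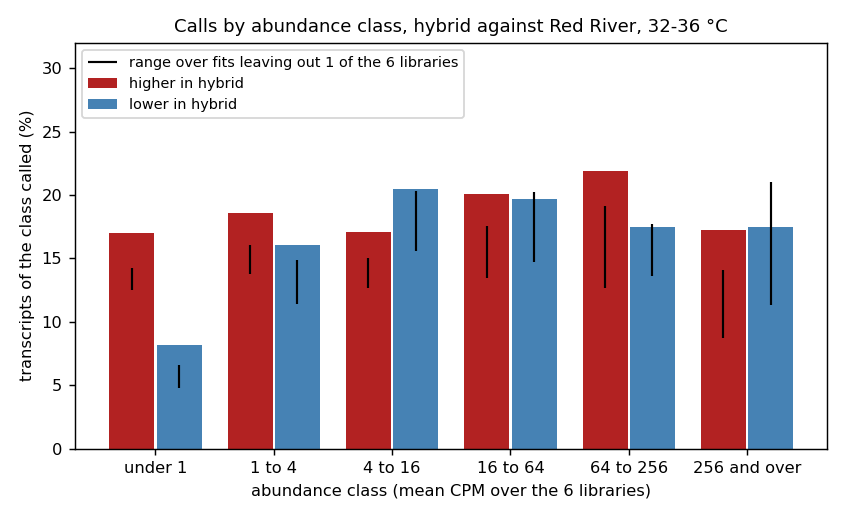
Percent of the transcripts of each abundance class that were called higher (red) or lower (blue) in hybrid than in Red River livers at 32 to 36 °C. Black lines give the range over 6 fits that each leave out 1 of the 6 libraries. They come from fits with fewer libraries and are not intervals around the bars. For higher calls they lie below the top of the bar in every class. Lower calls are few under 1 CPM (8.15%), and near the higher calls in the most abundant class (17.5% and 17.3%), where the black lines are long.

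Among the least abundant transcripts gains were called more often than reductions. Under 1 CPM, 7932 transcripts were higher and 3798 lower in hybrids, with median log2 fold changes of 1.98 and -1.28. Gains over 4-fold numbered 3898 in this class and reductions over 4-fold 472. Where a mean of at least 50 reads was required, 557 transcripts of this class were left, 47 of them higher and 107 lower. That mean is over all 18 libraries, while the class is set by the 6 compared. The 557 are thus a selected set, and their split cannot tell which direction held in the class. At 1 to 4 CPM, 5162 were higher and 4462 lower, with medians of 1.19 and -0.87. This direction turned in some fits, with 3912 higher and 4140 lower without H1, 3818 and 4075 without H7, and 4309 and 5080 with no filter on low counts.

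Among transcripts of middle abundance, reductions were as frequent as gains or more so at an adjusted p under 0.05, but smaller. At 4 to 16 CPM, 2580 were higher and 3093 lower, with median log2 fold changes of 0.98 and -0.72. This order turned at an adjusted p under 0.01, with 11.97% of that class higher and 11.3% lower. At 16 to 64 CPM, 994 were higher and 976 lower, with medians of 0.89 and -0.75. Neither direction held in that class, where the counts ran from 665 and 1001 without H1 to 868 and 730 without H2. Over 4-fold the gains again prevailed, with 537 against 50 at 4 to 16 CPM and 185 against 15 at 16 to 64 CPM. The largest reduction at 16 to 64 CPM was -3.93 on the log2 scale and the largest gain 11.98.

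Among abundant transcripts the differences were as common but mostly small. In the high class, 403 were higher and 322 lower (medians 0.73 and -0.75), and in the top class, 87 were higher and 88 lower (medians 0.68 and -0.62). Of the latter, 64 gains and 75 reductions were under 2-fold. The high class was the exception to the excess of small reductions, with 278 gains and 248 reductions under 2-fold. This exception did not hold without H1 (137 and 225), H6 (179 and 218), H7 (150 and 209) or H8 (186 and 192). Nor did it hold with no filter on low counts (188 and 287) or with scaling without the 20 most abundant transcripts (254 and 265). Reductions stopped short. The largest was -2.10 in the high class and -1.60 in the top class, so that 2 and 0 transcripts fell by more than 4-fold. Gains over 4-fold numbered 37 and 10 in these classes, and gains over 16-fold 14 and 3.

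**Figure D2:**
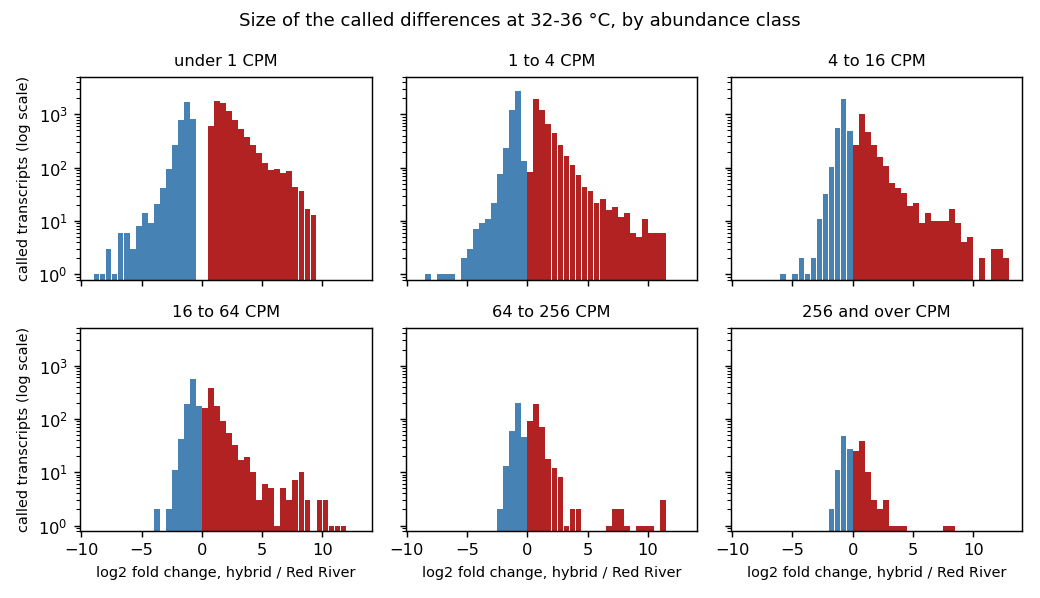
Number of called transcripts (log scale) by log2 fold change of hybrid over Red River at 32 to 36 °C, in bins of 0.5, 1 panel per abundance class. As fitted, gains (red) reach log2 fold changes of 8.21 or more in every class, while the reductions (blue) end at -8.56 under 1 CPM and at -1.60 in the top class. Both ends under 1 CPM come from transcripts without reads in a type. With the floor of 3 reads over a group, gains in that class stay below 8.21 and reductions stop short of -8.56. Over 16-fold, that class then holds 905 gains in place of 1049, and 49 reductions in place of 52.

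Which direction held more calls among abundant transcripts depended on single libraries. In the top class the counts of higher and lower transcripts were 44 and 106 without H1, 66 and 57 without H2, 71 and 57 without H4, 55 and 97 without H6, 53 and 86 without H7 and 59 and 58 without H8. They were 54 and 112 with no filter on low counts. In the high class gains made up 55.6% of the calls with all libraries, but 41.7% without H1, 46.8% without H6, 45.9% without H7 and 42.9% with no filter on low counts.

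The class of a transcript also depends on the libraries that set it, since a transcript found in hybrids alone raises its own mean over the 6 libraries. With classes taken from the low-temperature libraries of both types, 18.3% of the top class were higher and 18.0% lower. Classes were also taken from Delta Select channel catfish at the high temperature, which are not in the comparison. This sorting leans the other way. A transcript found in hybrids and not in channel fish falls by construction into a low class, which takes gains out of the classes above. With these classes reductions outnumbered gains in each class from 1 CPM up. The shares higher and lower were then 21.4% and 6.93% under 1 CPM, 14.8% and 16.5% at 1 to 4, 12.5% and 22.6% at 4 to 16, 14.1% and 23.7% at 16 to 64, 17.5% and 20.7% in the high class, and 10.4% and 21.8% in the top class.

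The transcript of largest gain in the most abundant class was k62:2049125. Its level was 561.9 CPM in H2, 652.9 in H6 and 579.6 in H8, against 2.03 CPM in H1, 1.87 in H4 and 2.17 in H7. All hybrid tanks were thus high and close together, and all Red River tanks were near 2 CPM. The mean was 598.1 ± 48.2 against 2.02 ± 0.148 CPM (SD, n = 3 and 3), which is 8.21 ± 1.34 (SE) as a log2 difference (edgeR, adjusted p = 0.000759). This SE rests on the spread in all 18 libraries, L3 and L5 among them, and not on the 6 compared alone. The edgeR adjusted p was 3.21e-15 without L3 and L5, and 2.13e-09 with only the 6 libraries compared. By mean level k62:2049125 ranked 155 in hybrids and 33996 in Red River fish. In Delta Select channel catfish at the high temperature it stood at 1.998 ± 0.0074 CPM, the Red River level.

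The transcript of largest reduction in that class was k78:1221568, among the most abundant of the liver in both types, at rank 11 in Red River and rank 45 in hybrid fish. Its level was 1911 CPM in H2, 2411 in H6 and 1604 in H8, against 5951 in H1, 6236 in H4 and 5840 in H7. The groups did not overlap, and the hybrid tanks varied more in relation to their mean. The means were 1975 ± 407.4 and 6009 ± 204.2 CPM (SD, n = 3 and 3), 3.102-fold lower in hybrids by summed reads, and the log2 difference was -1.60 ± 0.31 (edgeR, adjusted p = 0.00127). Delta Select channel catfish at the high temperature lay between, at 4663 CPM in H3, 3718 in H5 and 4355 in H9.

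At 16 to 64 CPM the largest gain was that of k86:801792. Hybrid tanks had 39.2 (H2), 25.2 (H6) and 58.9 CPM (H8), 5816 reads in all, while the Red River tanks together had 1 read, in H4. The ratio of summed reads was 5689 with a 95% exact interval of 1021 to 224742, which covers counting error only. As a log2 difference edgeR gave 11.98 ± 2.63 (adjusted p = 0.0047). In limma-voom it was 11.23 and not called (adjusted p = 0.419, within a range of 5.85e-09 to 0.419 over 16 other fits, 15 of which called it). Delta Select channel tanks at the high temperature were divided, with 16.6 CPM in H5 and 9.999 in H9 but 0.063 in H3.

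The largest reduction at 16 to 64 CPM was that of k50:1075571u. It had 2.88 CPM in H2, 2.97 in H6 and 3.31 in H8, against 32.8 in H1, 48.3 in H4 and 58.3 in H7. The hybrid tanks were nearly equal and the Red River tanks spread widely above them. The means of 3.05 ± 0.227 and 46.5 ± 12.9 CPM (SD, n = 3 and 3) stood -3.93 ± 0.46 apart on the log2 scale (edgeR, adjusted p = 4.68e-05). The level in Delta Select channel catfish, 17.3 ± 4.72 CPM, lay between those of the other types. This transcript and both named in the top class stayed called in all 16 other fits.

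**Figure D3:**
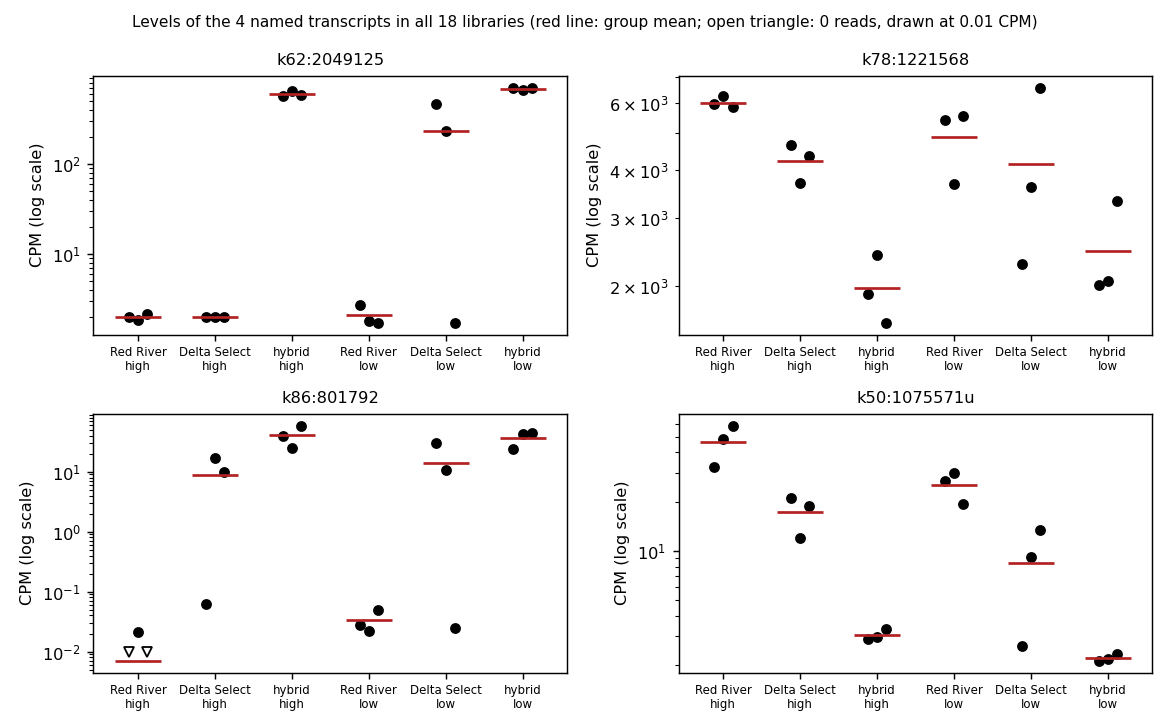
CPM (log scale) of the 4 named transcripts in each of the 18 libraries, by type and temperature (high is 32 to 36 °C, low is 27 to 31 °C). Dots are tank pools, red lines group means, open triangles 0 reads. For k62:2049125 the hybrid tanks at the high temperature sit between 561.9 and 652.9 CPM and the Red River tanks between 1.87 and 2.17, and for k78:1221568 the order is the opposite, with 1604 to 2411 CPM in hybrids and 5840 to 6236 in Red River fish.

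A part of the gains were transcripts without any Red River reads. With every library thinned to 38550145 reads, hybrid libraries had reads on 123380 to 124475 transcripts and Red River libraries on 117648 to 118072, with no overlap. At this depth 2071 transcripts had reads in all 3 hybrid tanks and none in Red River tanks, and 226 had reads in all 3 Red River tanks and none in hybrid tanks. Most were rare. The median was 10 reads over the 3 hybrid libraries and 6 over the 3 Red River libraries, and 0 reads over a group still allows a level of up to 3 reads. At 30 or more reads there were 360 such transcripts in hybrids and 12 in Red River fish, and at 300 or more there were 29 and 0. The highest had 2535 reads in hybrids and 117 in Red River fish. In the low-temperature tanks, not thinned, 1172 of the 2071 were found again in all 3 hybrid libraries, and 1048 again had 0 reads in all 3 Red River libraries.

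The called transcripts, 30.9% of those tested, were also compared by their share of each library's reads on transcripts. Those called higher in hybrids held 24.4% of the reads in H2, 24.0% in H6 and 24.4% in H8, against 11.5% in H1, 12.2% in H4 and 11.7% in H7. Those called lower held 13.9%, 14.1% and 13.5% in the hybrid tanks, against 25.03%, 24.4% and 24.3% in the Red River tanks. These shares describe the libraries that chose the transcripts and test nothing. In the low-temperature tanks, which did not choose them, the higher set held 24.5% (L1), 23.8% (L4) and 23.6% (L7) of hybrid reads and 12.8% (L2), 12.7% (L6) and 12.6% (L9) of Red River reads. The lower set held 13.8%, 14.0% and 14.3% of hybrid reads there, against 22.9%, 23.6% and 23.2% of Red River reads. Delta Select channel tanks at the high temperature lay near the Red River tanks, with 12.5% to 12.9% in the higher set and 22.6% to 23.1% in the lower set. Delta Select channel tanks at the low temperature were divided, with 20.3% of reads in the higher set in L3, 16.9% in L5 and 13.3% in L8.

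**Figure D4:**
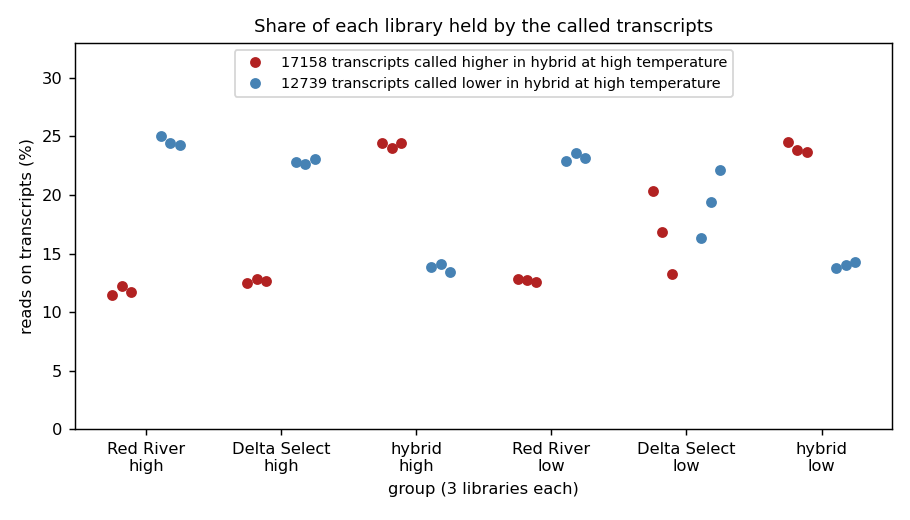
Percent of each library's reads on transcripts that fell on the 17158 transcripts called higher in hybrid than Red River at 32 to 36 °C (red) and on the 12739 called lower (blue), in all 18 libraries, with each dot a tank pool. Hybrid tanks lie at 23.6% to 24.5% (red) at both temperatures and Red River tanks at 11.5% to 12.8%, while the Delta Select tanks at low temperature are spread out.

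Classes are set by level, so by construction the abundant ones held the most of these reads for their number of transcripts. The shares by class at the high temperature also describe the libraries that chose the transcripts. The 87 gains in the top class held 8.29 ± 0.116% of hybrid and 4.47 ± 0.211% of Red River reads (SD, n = 3 and 3), and the 88 reductions of that class 6.39 ± 0.387% and 11.5 ± 0.221%. In the high class the 403 gains held 6.79 ± 0.302% and 3.53 ± 0.169%, and the 322 reductions 2.77 ± 0.0193% and 4.80 ± 0.0842%. At 16 to 64 CPM the 994 gains held 4.30 ± 0.141% and 1.90 ± 0.0496%, and the 976 reductions 2.11 ± 0.0228% and 3.68 ± 0.022%. The 7932 gains under 1 CPM held 0.561 ± 0.00987% and 0.149 ± 0.00369%. The 10 gains over 4-fold in the top class took 0.82% of the reads in H2, 0.679% in H6 and 0.618% in H8, and between 0.066% and 0.0843% in the Red River tanks. In the low-temperature tanks, which did not choose the transcripts, the 87 gains of the top class held 8.74 ± 0.330% of hybrid and 4.79 ± 0.193% of Red River reads. Its 88 reductions held 6.70 ± 0.448% and 10.5 ± 0.613% there.

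The most abundant transcripts of each library were compared as shares of its reads. The 10 most abundant of each library held 7.01% of the reads in H2, 7.61% in H6 and 6.94% in H8, against 9.58% in H1, 9.04% in H4 and 9.13% in H7. The groups did not overlap, and the means differed by -2.06 percentage points (exact permutation test, two-sided p = 0.10, the smallest that 3 against 3 libraries allow, and 0.15 after Benjamini-Hochberg adjustment over 9 such shares). The top class held 41.5 ± 1.22% of hybrid and 43.7 ± 0.593% of Red River reads (exact p = 0.10). Without the 20 most abundant transcripts both groups overlapped, at 4.11 ± 0.408% and 4.48 ± 0.0103% for the 10 most abundant that were left. At the low temperature the 10 most abundant held 7.42% to 8.31% of hybrid and 8.18% to 9.31% of Red River reads, with overlap. The types largely shared their most abundant transcripts. Of the 100 highest by mean level 85 were common to both, and of the 1000 highest 809. Libraries of a type shared 86 to 93 of their 100 highest and libraries of different types 77 to 82.

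The same types were compared in other tanks at 27 to 31 °C, with no library in common though with the same estimate of spread. There 27988 of 96799 transcripts were called (28.9%, edgeR), 16465 higher (17.0%) and 11523 lower (11.9%) in hybrids. The direction of this split turned with the scaling, since total reads without TMM gave 12576 higher and 17431 lower and moved the median log2 difference of all transcripts from 0.00 to -0.17. In all, 19502 transcripts were called at both temperatures in the same direction, 65.2% of the calls at the high and 69.7% of those at the low temperature. With total reads these shares were 66.5% and 63.9%. Of the calls at the high temperature, 96.8% had the same direction at the low temperature, called or not. The same share over all transcripts tested is not given here, so how far the calls exceed it cannot be said. The difference kept most of its size. For transcripts called at the low temperature, the median log2 difference in that direction was 1.19 at the low and 0.98 at the high temperature. For those called at the high temperature it was 1.17 at the high and 0.96 at the low, and in both cases the list favours the temperature that chose it.

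Over all classes together, large gains were called again more often than small ones. Over 16-fold, 86.5% of the 1601 gains at the high temperature were also called higher at the low temperature, and 79.2% of the 72 reductions were also called lower. Under 2-fold these shares were 61.8% of 4802 gains and 51.7% of 7162 reductions, but 41.0% and 73.8% with total reads in place of TMM. With edgeR, from 1 CPM up to the high class, the largest gains were called again less often than those of 4 to 16-fold. The shares over 16-fold and at 4 to 16-fold were 84.4% and 90.9% at 1 to 4 CPM, 74.4% and 96.4% at 4 to 16, 69.4% and 98.4% at 16 to 64, and 64.3% of 14 and 100% of 23 in the high class. Under 1 CPM they were 90.4% and 78.1%. The gap was smaller in limma-voom, with 92.8% and 93.4% at 1 to 4 CPM and 95.3% and 97.5% at 4 to 16. There it was 91.9% and 99.2% at 16 to 64 CPM. In the high class both shares were 100% in limma-voom and in DESeq2. From 1 to 64 CPM DESeq2 kept the gap, with 87.3% and 91.7% at 1 to 4 CPM. Its shares were 75.9% and 97.5% at 4 to 16 CPM, and 71.7% and 98.4% at 16 to 64 CPM. With edgeR, 5 of the 14 gains over 16-fold in the high class had 1 hybrid library far above the next. All 9 others were called again. In the classes below, the gains over 16-fold without such a library were called again in 89.1% of 285 at 1 to 4 CPM. The shares were 76.6% of 167 at 4 to 16 CPM and 72.9% of 59 at 16 to 64 CPM. By class, the calls at the high temperature that were also called at the low, in the same direction, ran from 60.0% under 1 CPM to 76.4% in the high class, and came to 65.7% in the top class. The share of all transcripts tested that was called at the low temperature, in either direction, differed likewise by class. It was 23.1% under 1 CPM, 42.2% in the high class and 34.5% in the top class. The part of this in the class differences was not tested. The small reductions of the most abundant class were called again least, with 23 of 75 (30.7%), whereas 59 of its 64 gains under 2-fold were called again. With total reads these counts were 57 of 88 and 57 of 76.

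**Figure D5:**
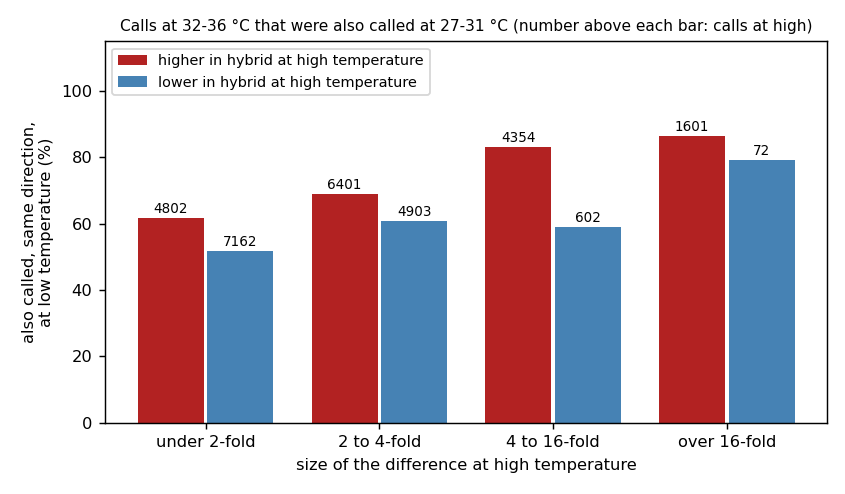
Percent of the transcripts called at 32 to 36 °C that were also called in the same direction at 27 to 31 °C, by size of the difference at the high temperature, for gains (red) and reductions (blue), with the number of calls at the high temperature above each bar. With all abundance classes pooled, the share for gains is 61.8% under 2-fold and 86.5% over 16-fold. In the classes from 1 CPM to the high class it is lower over 16-fold than at 4 to 16-fold with edgeR. In limma-voom and DESeq2 it was also lower over 16-fold in the classes from 1 to 64 CPM, and the shares were equal in the high class.

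A difference between the types that itself depends on temperature was not called for any transcript by edgeR. The interaction had 0 calls, with 5620 transcripts (5.81%) at an unadjusted p under 0.05 and a smallest adjusted p of 0.245. DESeq2 called 61 and limma-voom 0. In the top class the low temperature had 130 higher and 44 lower calls, where the high temperature had 87 and 88. This split moved with the scaling, since total reads without TMM gave 94 and 90 at the low and 101 and 101 at the high temperature. Of the 4 named transcripts, each was called in the same direction at the low temperature, with log2 fold changes of 8.36 ± 1.35 for k62:2049125, -0.99 ± 0.30 for k78:1221568, 10.03 ± 2.31 for k86:801792 and -3.52 ± 0.45 for k50:1075571u (edgeR, adjusted p = 0.00077, 0.0237, 0.00651 and 0.000111).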

How the data were processed

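Per the labels' protocols, TruSeq version 2 libraries of liver RNA were read as single ends of 50 bases. Raw counts of reads on each assembled transcript were deposited by the authors. The submitters' processing notes name Bowtie2 2.1.0, DESeq 1.12.1 and R 3.1.0 without their roles. Which assembler and counting method were used is not given in the sources used here. A row naming no transcript, with 24.2% to 25.6% of each library's reads, was left out, as was a scaled copy of the table. No 2 libraries of a group agreed within sampling noise (chi-square per degree of freedom 9.58 to 46.2).

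Counts of all 18 libraries were fitted with edgeR 4.0.16 in R 4.3.3 (TMM, robust quasi-likelihood, 1 mean per group, 12 residual degrees of freedom). Of all transcripts, 96799 passed filterByExpr (minimum count 10, minimum total 15) and 47947 did not. The SE of a log2 fold change was taken from the F statistic, and CPM uses TMM scaling. DESeq2 1.42.0 and limma 3.58.1 served as alternatives. Library codes pair no tanks.

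The comparison and its lists were chosen with earlier results of these data known. As identifiers carry no gene names, 2 higher and 2 lower transcripts are named. They have the largest log2 fold change in each direction in the top class and at 16 to 64 CPM, among calls whose groups do not overlap.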

Additional observations from a re-analysis of the deposited data

How the results depend on the processing

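The number of calls, 29897 with the settings reported, lay between 28822 and 33554 under other scalings, tests and choices of libraries in the fit. It was 17749 (9114 higher) where a mean of 50 reads was required and 17182 (11039 higher, 6143 lower) at an adjusted p under 0.01. Leaving out 1 of the 6 libraries gave 23900 to 24792, and 75.6% to 77.6% of the calls remained in the same direction. Under 2-fold these fits had 2469 to 3186 gains and 4371 to 5857 reductions, and an adjusted p under 0.01 gave 1824 and 2685. Over 4-fold, a mean of at least 50 reads gave 1719 gains and 170 reductions, and no filter on low counts gave 1052 reductions. Over 16-fold, the former gave 450 and 13, the latter 2557 and 143.

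By class, no filter gave 10.2% higher and 5.13% lower under 1 CPM and 10.7% higher in the top class. A mean of at least 50 reads gave 8.42% higher and 19.2% lower in the small, selected set that it left under 1 CPM. At an adjusted p under 0.01, the shares were 10.3% higher and 2.86% lower under 1 CPM, and 12.5% and 8.21% at 1 to 4. They were 11.97% and 11.3% at 4 to 16, and 13.5% and 11.5% at 16 to 64. In the high class 13.9% were higher and 10.97% lower, and in the top class 9.52% and 8.93%. Gains thus outnumbered reductions in each class at that threshold, also at 4 to 16 CPM, where reductions led at an adjusted p under 0.05. Classes from Delta Select libraries gave 10.4% higher in the top class. Without single libraries, the shares ran from 4.77% to 6.6% lower under 1 CPM, 12.7% to 19.1% higher in the high class, and 8.73% to 14.1% higher and 11.3% to 21.0% lower in the top class. Leaving out a library or raising the minimum tests fewer samples or transcripts, and a lower threshold is stricter by construction. The number of transcripts tested also changed, from 96799 in the fit reported. It was 136462 with no filter, 104367 without L3 and L5 and 99453 to 99994 without 1 of the 6 libraries. Fits on the 6 compared or the 9 high-temperature libraries alone tested 87542 and 91809. Beyond that the cause was not tested. The class under 1 CPM rests on a median of 17.0 reads per library, with a median SE of 0.41.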

Other observations

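Some gains belonged to 1 hybrid tank. Of the 1601 transcripts over 16-fold higher in hybrids, 36 had a level in 1 hybrid library over 10 times that of the next hybrid library. Of these 26 were in H6, 6 in H8 and 4 in H2. None of the 36 (0) was called higher in hybrids at the low temperature, against 1385 of the other 1565 (88.5%). They weighed most in the high class, where they made up 5 of 14 such gains, 4 of them in H2. Without H6, 1547 transcripts were over 16-fold higher, 1474 of them among the transcripts tested with all libraries.

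Opposite differences at the 2 temperatures were rare. Both temperatures called 19520 transcripts in common, and 18 of these in opposite directions, 8 of them higher in hybrids at the high temperature. Their median level was 1.19 CPM, and their interaction had an adjusted p of 0.245 to 0.556 (edgeR).

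Calls also varied with the form of the identifier, the only property of a transcript that accompanies its counts. Of transcripts assembled at a k-mer size of 50, 26.5% were called (15.3% higher and 11.2% lower), and of those at 94, 37.0% (19.8% higher and 17.1% lower). Their median levels were 0.542 and 2.59 CPM, and the part of level in this was not tested. Gains over 16-fold made up 2.28% of the former and 1.44% of the latter.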
